A study of Caenorhabditis elegans with 2 samples.

Results

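The Hox genes of Caenorhabditis elegans and the homeodomain genes that encode their DNA-binding partners were examined in embryos for binding of the nuclear hormone receptor NHR-2. The members were 10 genes chosen by name, of 19973 protein-coding genes on the nuclear chromosomes. They comprised 6 Hox genes (ceh-13, lin-39, mab-5, egl-5, php-3 and nob-1) and 4 cofactor genes, of which ceh-20, ceh-40 and ceh-60 are of the Pbx class and unc-62 is of the Meis class. Chromatin was immunoprecipitated from whole animals and the recovered DNA sequenced (ChIP-seq), in 2 libraries labelled as biological replicates 1 and 2 of 1 group. The animals were of strain OP99, with the mutation unc-119(ed3) on chromosome III and the transgene insertion wgIs99 for nhr-2, in both sexes and at mixed embryonic stages. One label names the target as an eGFP fusion of NHR-2 and another gives nhr-2 as the antibody. The promoter of the transgene and its copy number are not given in the labels, and whole embryos were used, so cell types cannot be told apart. The samples formed 1 group, with no second group to compare with. Values are therefore compared between genes and regions, with no test, and that the replicates came from separate cultures is known only from their label.

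Hox proteins are homeodomain transcription factors that give cells along the body axis their regional identity. On their own they bind short and similar DNA words, and Pbx-class and Meis-class proteins, homeodomain factors of the TALE group, join them on DNA and raise their selectivity. In the worm, ceh-13 acts in the anterior, lin-39 in the mid-body and mab-5 in the posterior body region, and egl-5, php-3 and nob-1 are posterior genes related to Drosophila Abdominal-B. UNC-62 also helps to bring Pbx-class proteins into the nucleus, and ceh-20 and ceh-40 act redundantly in the embryo.

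Binding was read from the authors' region lists on build ce11 (WBcel235). Candidate lists of the series and of each replicate held 30000 regions each, and a list of 1861 peaks had been thresholded for agreement of ranks between the replicates. Each region had a signal value, the authors' enrichment score, and was ranked by it within its list, with rank 1 the strongest. The 1861 peaks were the strongest regions of the series list by signal. The weakest of them had 51.65 and the strongest region left out had 51.63. A single peak therefore need not rank high in each replicate. A region was assigned to a gene when its summit, the position of highest enrichment, lay in the gene body or within 5 kb on either side. Positions are counted along the gene from the annotated 5′ end, so a negative distance is upstream.

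By this rule 6 of the 10 genes had a peak: 3 of the 6 Hox genes (ceh-13, mab-5 and nob-1) and 3 of the 4 cofactor genes (ceh-20, ceh-40 and unc-62). Among all protein-coding genes the share with a peak was 15.7%. The members were chosen with earlier results of these data known, so this is a description and no test. The windows held 13 distinct peaks, 6 at Hox genes and 7 at cofactor genes. The sequence under 8 summits is shown first: the 5 member peaks that hold AGGTCA, a word recognised by many nuclear receptors, the strongest peaks of ceh-13 and unc-62, which lack it, and a stronger peak farther upstream of nob-1. Each is 75 bases on either side of the summit, on the strand of the gene, read from the WBcel235 genome. Capitals mark a match, on either strand, to any of 6 words that were searched: AGGTCA of nuclear receptors, GAGAGA of GAGA-type repeats, TGATNNAT of Hox and Pbx proteins bound together, TGACAG of Meis proteins, TAATTA of many homeodomain proteins and CAGGTG of E-box binding factors.
ceh-13, 3752 bp downstream of the 5′ end, chrIII:7559337-7559487, plus strand: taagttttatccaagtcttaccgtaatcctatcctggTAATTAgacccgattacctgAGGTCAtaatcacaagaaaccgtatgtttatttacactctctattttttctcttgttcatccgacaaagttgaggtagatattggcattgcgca
ceh-13, 3202 bp downstream of the 5′ end, chrIII:7558787-7558937, plus strand: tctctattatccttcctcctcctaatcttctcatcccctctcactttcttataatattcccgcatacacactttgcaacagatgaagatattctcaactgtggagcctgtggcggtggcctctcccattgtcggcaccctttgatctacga
mab-5, 2754 bp downstream of the 5′ end, chrIII:7780625-7780775, minus strand: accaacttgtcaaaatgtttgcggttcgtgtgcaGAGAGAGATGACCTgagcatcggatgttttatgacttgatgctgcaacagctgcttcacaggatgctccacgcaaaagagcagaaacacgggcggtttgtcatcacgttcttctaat
nob-1, 8479 bp upstream of the 5′ end, chrIII:12092720-12092870, minus strand: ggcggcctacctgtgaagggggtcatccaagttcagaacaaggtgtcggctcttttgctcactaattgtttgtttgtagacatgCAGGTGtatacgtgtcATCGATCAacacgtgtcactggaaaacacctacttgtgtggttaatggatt
ceh-20, 802 bp upstream of the 5′ end, chrIII:6979007-6979157, plus strand: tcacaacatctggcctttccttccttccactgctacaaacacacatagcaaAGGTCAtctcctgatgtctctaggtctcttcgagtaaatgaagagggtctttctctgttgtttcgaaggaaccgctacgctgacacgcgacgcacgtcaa
ceh-40, 166 bp upstream of the 5′ end, chrX:12320868-12321018, minus strand: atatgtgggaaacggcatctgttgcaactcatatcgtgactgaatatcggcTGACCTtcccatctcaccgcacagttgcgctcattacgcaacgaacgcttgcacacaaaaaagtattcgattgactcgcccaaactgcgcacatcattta
unc-62, 8607 bp downstream of the 5′ end, chrV:4505993-4506143, plus strand: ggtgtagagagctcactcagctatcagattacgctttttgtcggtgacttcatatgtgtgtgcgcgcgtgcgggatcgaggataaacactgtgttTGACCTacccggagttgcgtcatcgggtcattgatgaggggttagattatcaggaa
unc-62, 1162 bp upstream of the 5′ end, chrV:4496224-4496374, plus strand: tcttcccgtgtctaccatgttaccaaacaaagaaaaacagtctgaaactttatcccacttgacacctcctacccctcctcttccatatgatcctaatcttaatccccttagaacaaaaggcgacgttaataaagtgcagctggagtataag

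Of the Hox genes, ceh-13 carried the most peaks. This gene, the worm labial homologue, lies on chromosome III from 7555660 to 7558041 on the plus strand (WBGene00000437). Its strongest peak had a summit at 7558862, in intergenic sequence 821 bp beyond the 3′ end of the gene, with a series signal of 109.9 and rank 617. The region there had a signal of 62.9 and rank 619 in replicate 1, and a signal of 47.2 and rank 730 in replicate 2. Both replicates thus placed it at nearly the same rank, and their summits were 1 bp apart. A second peak lay farther on, at 7559412, with a signal of 65.5 and ranks of 1102 and 1743 in replicates 1 and 2. The nearest 5′ end to that summit was not of ceh-13 but of lgc-12, which encodes a ligand-gated ion channel subunit, 2760 bp away. A further peak was upstream, 1791 bp before the ceh-13 5′ end, with a signal of 59.6 and ranks of 1330 and 2173. Just under the threshold, a region 659 bp upstream of ceh-13 had a signal of 49.7 and series rank 1964, against 51.6 for the weakest thresholded peak. It was strong in replicate 1 (rank 1873) and weaker in replicate 2 (rank 7117).

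In mab-5, an Antennapedia-class gene that directs the posterior migration of the descendants of the QL neuroblast, both peaks were intronic. The gene lies on chromosome III from 7776835 to 7783454 on the minus strand (WBGene00003102), and both summits were in its intron 3, which is 3564 bp long in the single annotated transcript. The stronger, at 7778759 and 4695 bp into the gene, had a series signal of 81 and rank 979, with a signal of 48.8 and rank 883 in replicate 1 and a signal of 33.9 and rank 1306 in replicate 2. The weaker, at 7780700, had a series signal of 56.6 and rank 1634, and ranked 2204 and 2729 in the replicates, outside the first 1861 of either. The nearest 5′ end to the stronger summit was that of bath-15, 2726 bp away, and to the weaker that of mab-5 itself. The other 3 series regions of the window had signals between 15.7 and 17.7.

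The posterior pair nob-1 and php-3 are neighbours, 236 bp apart on the minus strand of chromosome III, and are needed for the formation of the posterior body. The nob-1 gene spans 12077793 to 12084316 (WBGene00003779) and had 1 peak in its window, 678 bp upstream of the 5′ end at 12084994. Its series signal of 53.9 and rank 1737 put it close to the end of the thresholded list, and it ranked 2141 and 2374 in replicates 1 and 2. The php-3 gene, from 12074218 to 12077556 (WBGene00004024), had no peak. Its strongest region, with a signal of 29 and rank 4776, lay inside an intron of nob-1 and is shared by both windows.

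A stronger peak stood beyond the 5 kb limit at nob-1, and is named here after its value was seen. Its summit at 12092795 was 8479 bp upstream of the nob-1 5′ end, in the intergenic stretch between nob-1 and cest-12, a gene on the same strand whose 3′ end faces the peak from 8950 bp away. It had a series signal of 286.5 and rank 108. It had a signal of 171 and rank 88 in replicate 1, and a signal of 121 and rank 140 in replicate 2. No peak in any 5 kb window of the members was as strong, and nob-1 had the nearest protein-coding 5′ end.

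The other 2 Hox genes, lin-39 and egl-5, had no peak within 5 kb. At lin-39, which acts in the vulval precursor cells and the mid-body, on chromosome III from 7528641 to 7536632 on the minus strand (WBGene00003024), the strongest region lay 1198 bp before the 5′ end and had a series signal of 40.9 and rank 2654. That region ranked 2381 in replicate 1 and 10297 in replicate 2, so the replicates differed widely. At egl-5, which acts in the male tail and the HSN neurons, on chromosome III from 7814374 to 7817141 on the plus strand (WBGene00001174), the strongest of 4 series regions had a signal of 17.6 and rank 15032. It lay in an exon of egl-5 and ranked 20456 and 25619 in replicates 1 and 2. A stronger region, with a series signal of 24.4 and rank 6902, lay 5081 bp upstream of egl-5, just beyond the window. A weaker series region near it, 4769 bp upstream, overlapped a replicate 1 region of rank 2207 with its summit at 7809308. In replicate 2 that weaker region overlapped one of rank 7913. By the strongest region within 5 kb, signal was thus high in series and replicate lists at ceh-13 and mab-5. It was close to the threshold at nob-1, and below it at lin-39, php-3 and egl-5. The weaker mab-5 peak, with a signal of 56.6, was also near the threshold, and the stronger distal nob-1 peak lay outside the window.

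**Figure D1:**
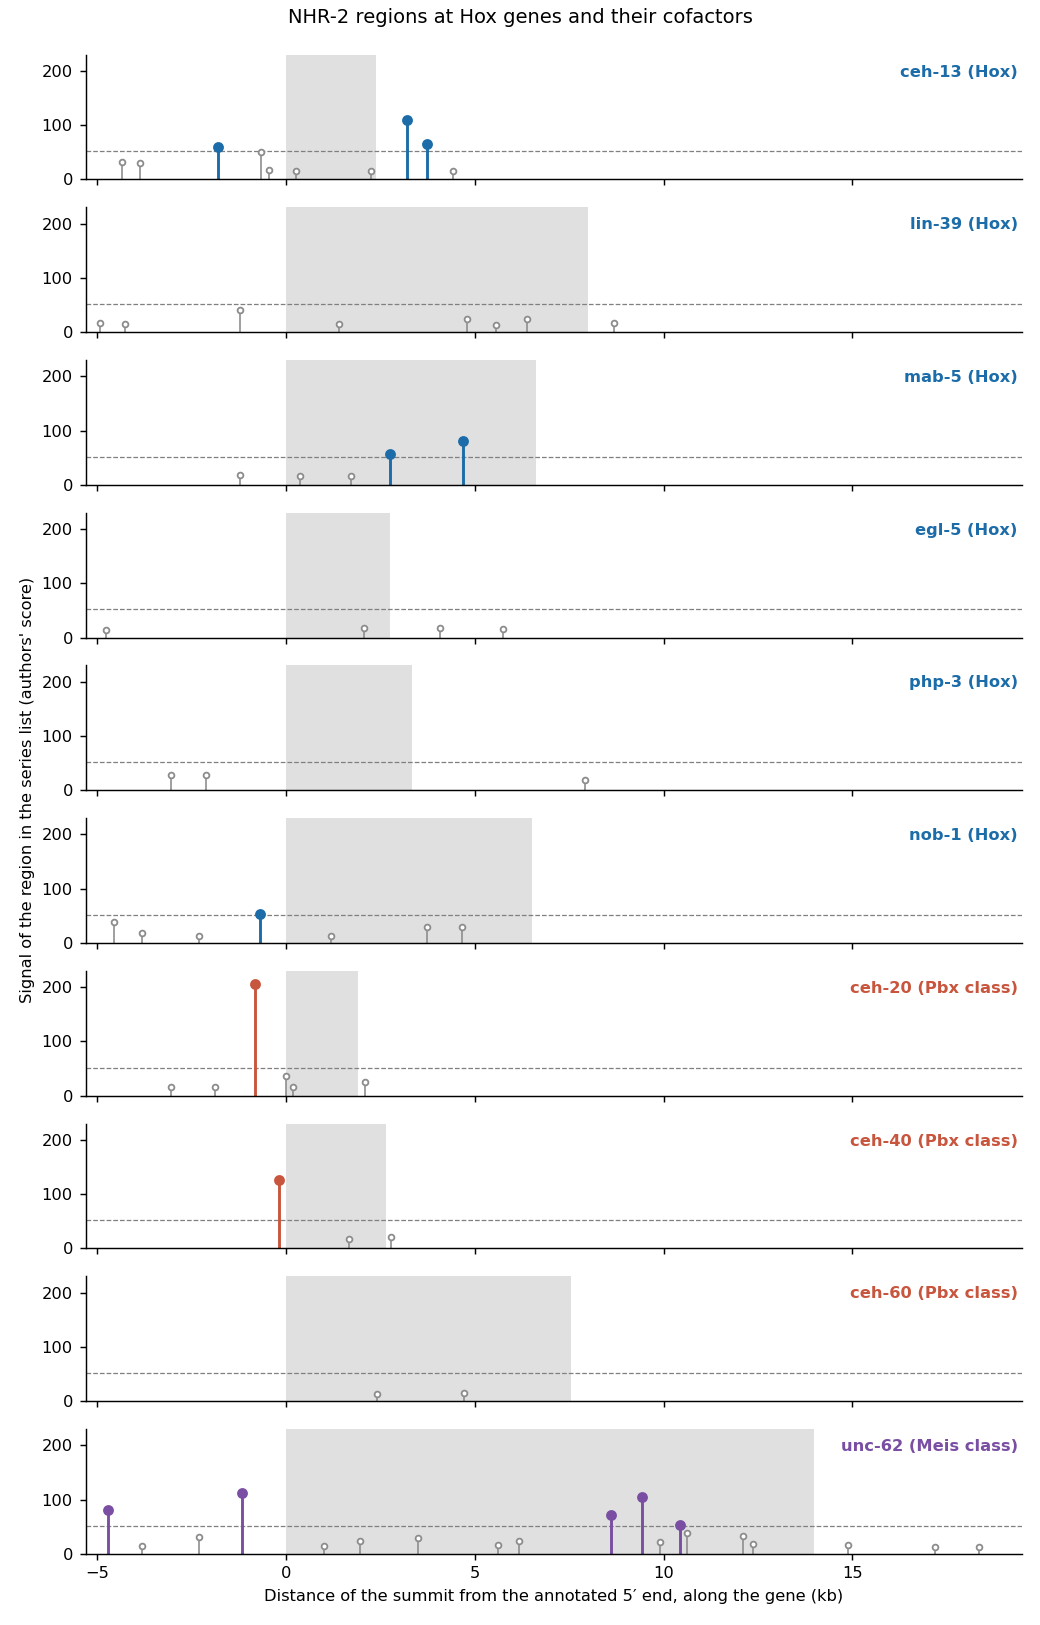
Regions of the series candidate list at each of the 10 genes, with the distance of the summit from the annotated 5′ end along the gene on the x axis and the authors' signal on the y axis. Filled points are thresholded peaks, open points weaker candidate regions, grey blocks the gene body and the dashed line the weakest thresholded peak (51.6); unc-62 has 5 peaks, ceh-13 has 3, and lin-39, egl-5, php-3 and ceh-60 have none.

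Of the cofactors, the Pbx-class genes ceh-20 and ceh-40 each had a single peak in the promoter region. The ceh-20 gene, which encodes the main Pbx-class partner of the Hox proteins in worms, lies on chromosome III from 6979884 to 6981785 on the plus strand (WBGene00000443). Its peak, with a summit at 6979082, was the strongest in the member windows, with a series signal of 205 and rank 220. It had a signal of 141 and rank 135 in replicate 1, and a signal of 64.5 and rank 429 in replicate 2. A weaker region lay 3 bp from the annotated 5′ end, in the first exon, with a signal of 36.9 and rank 3105. The ceh-40 gene lies on chromosome X from 12318126 to 12320777 on the minus strand (WBGene00000461). The ceh-40 peak, with its summit 166 bp before the 5′ end, had a series signal of 127 and rank 504. It had a signal of 62.7 and rank 621 in replicate 1, and a signal of 64.1 and rank 438 in replicate 2, so its order against ceh-20 was the same in both replicates, by a wide margin in the first and a narrow one in the second.

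The other Pbx-class gene, ceh-60, known for its part in the adult intestine, had no peak. On chromosome X from 6522596 to 6530146 on the minus strand (WBGene00017690), it had 2 series regions in its window, the stronger with a signal of 14.9 and rank 21216. Its strongest regions in the replicates ranked 12513 and 23895 and lay at different places, 1384 bp upstream and 4720 bp downstream of the 5′ end. Of the 10 genes it had the lowest signal in the series list.

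Among the members, unc-62 had the most peaks. The gene encodes the worm counterpart of Homothorax and Meis proteins and lies on chromosome V from 4497461 to 4511449 on the plus strand (WBGene00006796), with 18 annotated transcripts that begin at several places. The strongest of its 5 peaks was 1162 bp upstream of the most distal 5′ end, at 4496299, with a series signal of 111 and rank 606. It had a signal of 69.4 and rank 533 in replicate 1, and a signal of 43.6 and rank 852 in replicate 2. A farther peak, 4702 bp before the 5′ end, had a signal of 80.4 and ranks of 1199 and 1045 in the replicates.

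The other 3 unc-62 peaks stood together, within a long intron of 3973 bp, intron 8 of the longest transcript. Their summits at 4506068, 4506880 and 4507893 had series signals of 71.7, 105 and 53.9. The middle one ranked 574 and 953 in replicates 1 and 2 and lay 324 bp upstream of the annotated start, at 4507204, of T28F12.2d.10, the transcript that begins farthest downstream. The first lay 1136 bp upstream of that start and the last 689 bp downstream of it, in an untranslated exon of that 1 transcript. Among protein-coding genes by their outermost 5′ ends, the nearest to all 3 was T28F12.1, whose 5′ end was 6965, 6153 and 5140 bp away. The last was also the weakest, with rank 1739 in the series list and ranks of 1531 and 2589 in the replicates, whose summits there were 244 bp apart. A weaker series region beside it, with a summit at 4508092, a signal of 37.8 and rank 2969, overlapped the same replicate regions. The replicate 2 summit, at 4508161, lay nearer to that weaker region than to the peak. The peaks of unc-62 thus fell into an upstream pair and an internal group of 3 around an alternative transcript start.

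Hox genes and cofactors were then set side by side. The strongest series signal in the 5 kb window had a median of 47.4 over the 6 Hox genes and 119 over the 4 cofactor genes, against 23.7 over all protein-coding genes. The Hox range lay within the cofactor range: Hox genes ran between egl-5 with 17.6 and ceh-13 with 109.9, and cofactors between ceh-60 with 14.9 and ceh-20 with 205. The order of the levels in the series list was ceh-20, ceh-40, unc-62, ceh-13, mab-5, nob-1, lin-39, php-3, egl-5 and ceh-60. The neighbours unc-62 and ceh-13, with signals of 111 and 109.9, could not be separated, since ceh-13 ranked 619 and unc-62 533 in replicate 1, while ceh-13 ranked 730 and unc-62 852 in replicate 2. In replicate 1 the cofactor ceh-40, with rank 621, also stood below unc-62 and next to ceh-13 (rank 619), in place 4 of the order, whereas in replicate 2 it was next to ceh-20. In replicate 2 the order of the lower genes changed as well, with egl-5 (rank 5571) above lin-39 (6699) and php-3 (15786). The strongest egl-5 region of replicate 2 lay at a different place from that of the series list, 5751 bp downstream of the 5′ end. With 10 kb on either side the Hox median was 67.5 and the cofactor median 129, and the highest signal was then at a Hox gene, the distal nob-1 peak of 286.5, against 205 at ceh-20.

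**Figure D2:**
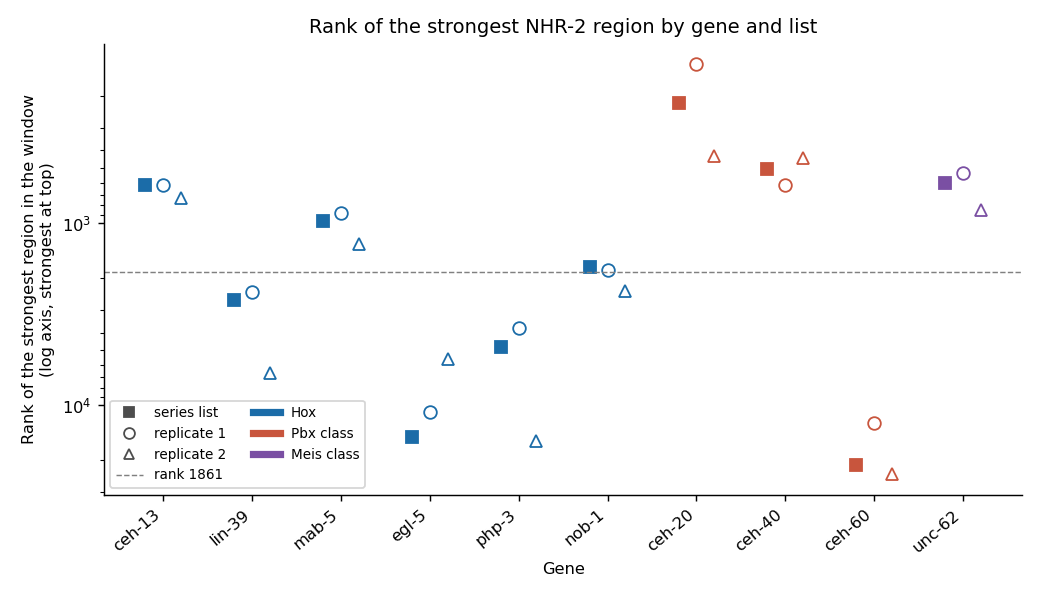
Rank of the strongest region within 5 kb of each gene (y axis, log scale, strongest at the top) in the series list, replicate 1 and replicate 2. The dashed line marks rank 1861, the length of the thresholded list; ceh-20, ceh-40, unc-62, ceh-13 and mab-5 lie above it in all 3 lists, and nob-1 lies on both sides of it.

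In density, the merged Hox windows had 7.51 peaks per 100 kb and the cofactor windows 10.6, against 1.83 in the merged windows of all protein-coding genes. The chromosomes that hold the members had 2.13 (III), 1.21 (V) and 2.47 (X) peaks per 100 kb. The order of both classes rested on unc-62: the Pbx-class genes alone had 4.75 peaks per 100 kb, below the Hox genes, and unc-62 alone had 20.8. Within the Hox genes ceh-13 had 24.2 and mab-5 12. Of the candidate regions in the windows, 17.1% at Hox genes (6 of 35) and 23.3% at cofactors (7 of 30) were in the thresholded list, against 6.13% in the windows of all genes. Having 5 or more peaks was rare, with unc-62 1 of 38 genes (0.190%) that did, in a window of 23989 bp against the median of 12 kb for all genes. Of 87 other homeodomain genes 2 also did, ceh-27 and vab-3 with 6 peaks each, named here after their counts were seen. The difference between Hox genes and cofactors was not tested, because genes are not replicates of a condition.

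Peaks were then counted in narrower and wider windows. A promoter window of 1000 bp upstream to 200 bp downstream held a peak at 1 of 6 Hox genes (nob-1) and at 2 of 4 cofactors (ceh-20 and ceh-40), against 4.16% of all genes. With 2 kb on either side of the gene body 3 Hox genes and 3 cofactors had a peak, the same 6 genes as with 5 kb, against 9.65% of all genes. With 10 kb there were 4 Hox genes and 3 cofactors, against 25.1% of all genes, php-3 being added through the peak at the nob-1 promoter. The share of genes on the chromosomes concerned was 20% on III, 8.99% on V and 24% on X with 5 kb. The median window of the members was 14.9 kb, against 12 kb for all genes.

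**Figure D3:**
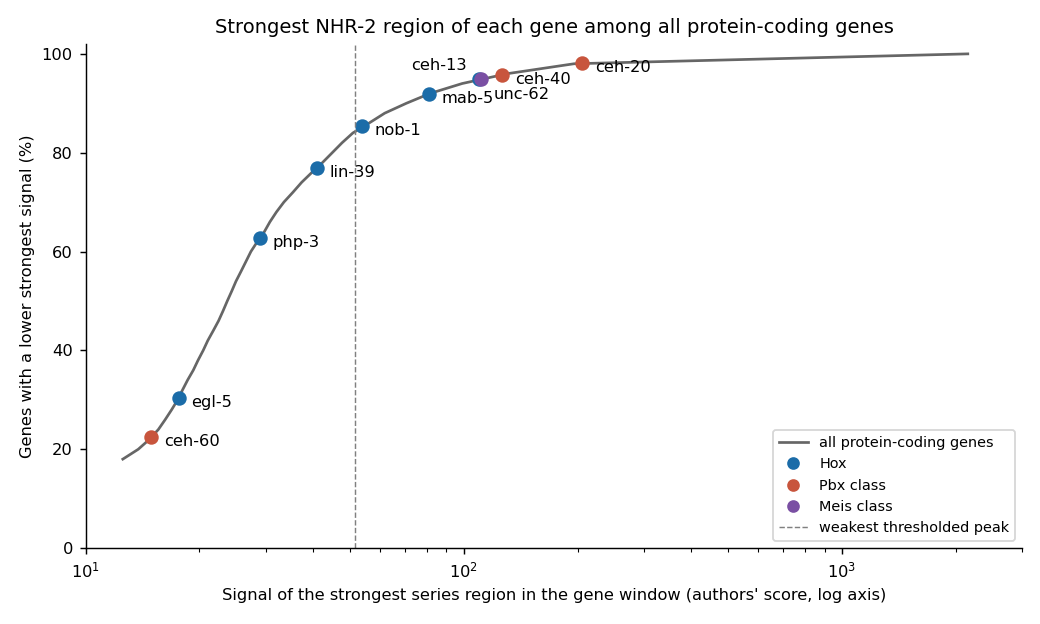
Share of all protein-coding genes with a lower strongest signal (y axis, %) against the signal of the strongest series region within 5 kb (x axis, log scale), with the 10 genes marked on the curve of all genes. The 6 genes with a peak lie between 85.4% (nob-1) and 98.2% (ceh-20), lin-39 and php-3 at 76.9% and 62.7%, and egl-5 and ceh-60 at 30.4% and 22.4%.

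All 13 peaks had an overlapping region in both replicates, as did 1830 of all 1843 nuclear peaks. Of the 13 member peaks, 9 (69.2%) ranked in the first 1861 of both, close to the 66.8% of all 1843 nuclear peaks. The share was 3 of 6 at Hox genes and 6 of 7 at cofactors. The 4 that fell outside were the upstream ceh-13 peak, the weaker mab-5 peak, the nob-1 promoter peak and the last internal unc-62 peak. Summits of the replicates were a median of 24 bp apart at member peaks and 28 bp at all nuclear peaks. When the 1861 strongest regions of replicate 2 alone were used, Hox windows held 3 peaks and nob-1 had none; with replicate 1 alone they held 5, and nob-1 qualified through another region, 4528 bp upstream, of rank 1818. The thresholded list had itself been made by comparing these replicates. It held the strongest regions by series signal, so the shares are a description and no separate check.

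**Figure D4:**
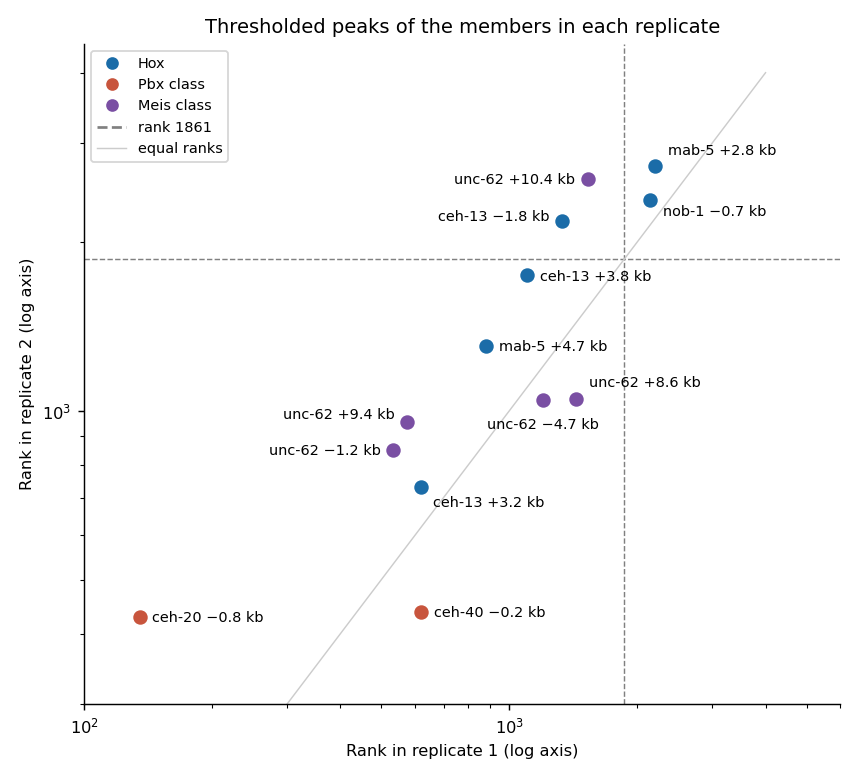
Rank of each of the 13 thresholded peaks in replicate 1 (x axis) and replicate 2 (y axis), both on log scales, labelled by gene and distance from the 5′ end. Dashed lines mark rank 1861; ceh-20 stands far left with ranks of 135 and 429, and mab-5 at 2754 bp and nob-1 lie beyond the line in both replicates.

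Of the words searched, AGGTCA was the most frequent within 75 bp of member summits. It lay there at 5 of 13 summits, 2 of 6 at Hox genes and 3 of 7 at cofactors, against 17.3% of all 1843 nuclear summits. Every match was centred within 31 bp of the summit, and the count was also 5 with 50 bp on either side, against 13.1% of all summits, and with 150 bp, against 24.9%. With 150 bp TAATTA lay at 5 member summits too. In the ceh-20 and ceh-40 promoters the word was centred at −21.5 bp, upstream of the summit along the gene, on opposite strands of their genes, as the sequences above show. At mab-5 its reverse complement directly followed a GAGAGA run. The strongest ceh-13 and unc-62 peaks and the distal nob-1 peak held no AGGTCA within 75 bp.

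The words of homeodomain factors were present at fewer summits. TGATNNAT, a form bound by Hox and Pbx proteins together, lay at 2 of 13 (ceh-13 upstream and unc-62 at 4702 bp upstream), against 9.28% of all summits, and matched on the other strand at the distal nob-1 peak. TAATTA, a core bound by many homeodomain proteins, lay at 3 of 13, against 9.71%. GAGAGA lay at 2 of 13, against 30% of all summits. The Meis word TGACAG lay at 0 of 13, against 13.6%, and the E-box word CAGGTG at 0 of 13, against 14.4%, though the distal nob-1 peak held it. The median GC content of the summit windows was 46.4% at members and 45% at all nuclear peaks. With 13 summits, counts this small describe these windows and no more.

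Genes that act before or after the Hox genes were examined in the same way. Of 18 genes known as regulators of Hox expression, 9 had a peak within 5 kb (50%), and of 10 genes described as Hox targets, 5 had one (50%). The share was 15.7% over all protein-coding genes and 36.8% over 87 other homeodomain genes. All these lists were drawn up with earlier results of these data known, so the shares are a description and no test. The median strongest signal was 50.9 and 57.7 in the lists, against 23.7 over all genes, with median windows of 14.9 kb and 14 kb. The strongest among the regulators was at pop-1, the worm TCF of Wnt signalling, in an intron 1037 bp downstream of its 5′ end, with a signal of 309 and ranks of 74 and 125 in replicates 1 and 2. At pal-1, the caudal homologue, an intronic peak 3031 bp downstream had a signal of 301 and series rank 97. At egl-27, which encodes a protein related to metastasis-associated chromatin factors, 7 peaks were found, the strongest with a signal of 263. The peak in the lin-22 window, with series rank 703, lay 4924 bp upstream of that gene and nearer to vrp-1, within the noncoding RNA gene Y54G2A.67.

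Among the targets, egl-1, the activator of programmed cell death, had its strongest peak 1395 bp before the 5′ end, and it had a signal of 380 and ranks of 58 and 45. The strongest of 3 peaks of lin-32, the atonal homologue, lay 3197 bp downstream of the 5′ end, within the noncoding RNA gene T14F9.13, with a signal of 281 and ranks of 122 and 106. At mig-13, a transmembrane protein of neuroblast migration, and vab-8, a kinesin-like protein of cell migration, the strongest peaks had signals of 81.9 and 72. The targets hlh-8, elt-6, psa-3, mab-3 and egl-17 had no peak.

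Of 87 other homeodomain genes, 32 had a peak within 5 kb (36.8%), and 7 had a stronger region than ceh-20. The share with a peak was 15.7% over all protein-coding genes and 6 of 10 among the members. The genes whose strongest signal was nearest to that of ceh-20, measured as the difference in signal in the 1 series list, were mls-2 with 233, ceh-16 with 234 and irx-1 with 239 above it, and lim-7 with 182, ceh-37 with 177 and unc-39 with 175 below it. Each of these 6 had 2 or more peaks in its window, where ceh-20 had 1. The 5′ end nearest to the strongest region was of another gene at ceh-16, irx-1, lim-7 and ceh-37. The list shared pal-1 and vab-7 with the regulators, and its names ceh-35 and ceh-44 matched no annotated gene.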

How the data were processed

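Region lists on build ce11 were used as deposited. Per the texts deposited with the libraries, candidate lists came from ChIP alignments and a control, and the thresholded list from all 3 candidate lists by the irreproducible discovery rate, which compares ranks between replicates. The sources used here name no aligner, peak caller, version or threshold. The signal values are the authors' enrichment score in the deposited lists; they were ranked within a list and not compared between lists. No read numbers are given, so depth is unknown. Summit offsets were taken from the deposited lists. Lists on build ce10 were not used.

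Genes were those of Ensembl release 115 (WBcel235), and sequence was read from the RefSeq copy of that assembly; all regions lay within its chromosome lengths. Coordinates are 1-based. A replicate region was paired with a peak when they shared 1 bp, the nearest summit being taken. Counting was checked on planted summits. Python 3.11.15, pandas 2.3.3 and numpy 2.4.6 were used.

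The members and gene lists were chosen with earlier results of these data known. Named genes were all members, genes at or nearest to member summits, up to 4 genes of the regulator and target lists with the strongest region, and the 3 other homeodomain genes on either side of the strongest member by signal.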

Additional observations from a re-analysis of the deposited data

How the results depend on the processing

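The counts of genes and peaks were recomputed with other flanks, with any overlap in place of the summit, with the 930 strongest peaks and with each replicate alone. With the 930 strongest peaks the Hox windows held 1 peak, at 1 gene (ceh-13), and the cofactor windows 4, at the same 3 genes as before. Without replicate 1 or replicate 2 the number of Hox genes with a peak was 2 to 3, that of Hox peaks 3 to 5 and that of cofactor peaks 6 to 7. A further choice, made after seeing the data, kept only peaks with the nearest 5′ end at a member of the class. By it 4 of 6 Hox peaks and 4 of 7 cofactor peaks stayed. The 3 internal unc-62 peaks dropped out because only the outermost 5′ end of each gene was counted, and that of T28F12.1 was nearer. All 3 lay within 1136 bp of an annotated unc-62 transcript start. With 150 bp on either side, TGATNNAT lay at 4 of the 13 summits (18.7% of all nuclear summits), TGACAG at 3 (19.9%), TAATTA at 5 (16.5%) and CAGGTG at 1 (21.2%). The other 31 recomputed counts stayed within 1.5 times their value. No paired analysis was possible because there was 1 group of samples. Depth is unknown, so no limit of detection can be given for genes without a peak.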

Other observations

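The gaps between clustered Hox genes were examined after the values at the genes had been seen. Between lin-39 and ceh-13, 19027 bp with no other protein-coding gene, lay 2 peaks and 16 series regions. Besides the peak 1791 bp upstream of ceh-13, a peak at 7546806 stood near the middle, 8854 bp upstream of ceh-13 and 10174 bp upstream of lin-39, with a series signal of 63.3 and rank 1390. It ranked 916 in replicate 1, but the nearest overlapping region in replicate 2 ranked 17040. Within 75 bp of the summit it held the AGGTCA word, the TAATTA core and matches to TGATNNAT on both strands.

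Between mab-5 and egl-5, 30919 bp with the gene cyk-7, lay no peak and 10 series regions, the strongest with a signal of 48.6 and rank 2031. That region was 17171 bp upstream of mab-5 and 13749 bp upstream of egl-5.

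Within 5 to 10 kb of the cofactors, a peak at 6972126 had a signal of 146 and was 7758 bp from the ceh-20 5′ end but 127 bp upstream of rfc-4, a replication factor C subunit. At 4489169, 8292 bp before the unc-62 5′ end, a peak had a signal of 131, and the nearest 5′ end to it was that of exc-15, 5710 bp away. It ranked 497 and 514 in replicates 1 and 2.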
